A study of Homo sapiens with 4 samples.

Results

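The genes described here are 92 genes that stood higher in TET1-reprogrammed HeyC2 cells, and lower in TET1-reprogrammed SKOV3 cells, than in the empty-plasmid controls of the same line. They were chosen by these measured values. In each cell line log2((TET1 + 1)/(control + 1)) was computed from the deposited FPKM, the fragments scaled to transcript length and library size, with a pseudocount of 1 FPKM. This was done for genes with a mean of at least 1 FPKM over the 2 libraries of the line, and the line's median over those genes was subtracted. The result is called the relative change: a gene at 0 moved like the median gene of its line. Members lay at or above 0.8 in HeyC2 and at or below -0.8 in SKOV3, which is 1.74-fold above or below the median gene. Of 26506 gene symbols in the tables, 11888 could be tested in both lines and 92 met both limits. The values that selected the genes are therefore given as a description only.

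HeyC2 and SKOV3 are established human ovarian cancer cell lines. Each was transfected with a pCMV6 plasmid carrying full-length TET1, or with the empty plasmid, and grown under Geneticin selection, a treatment that all 4 groups share. The transgene is driven by the plasmid's viral promoter, and the labels do not say whether the selected cells were pools or clones. The groups are HeyC2 control, HeyC2 TET1, SKOV3 control and SKOV3 TET1, with 1 RNA-seq library each, so no difference between conditions has a replicate check and no p-value was computed.

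TET1 mRNA stood at 0.20 FPKM in HeyC2 control and 1.68 in HeyC2 TET1, and at 0.43 in SKOV3 control and 2.42 in SKOV3 TET1. A constant, 3.23 in HeyC2 and 1.35 in SKOV3, multiplies the values of each TET1 library, as their steps show, and sets GAPDH equal to the control. Without it TET1 was 0.52 FPKM in HeyC2 TET1 and 1.8 in SKOV3 TET1, or about 13.8 against 32.6 fragments in HeyC2 and 28.4 against 112 in SKOV3. The median gene was therefore 1.61 log2 higher in HeyC2 TET1 and 0.59 higher in SKOV3 TET1 as deposited, but 0.06 and 0.19 higher before the scaling. Directions of genes and lists below are relative to that median gene unless FPKM are given. Depth, estimated from the steps between low values, was 6.58 to 7.32 M fragments per library (M, 1e6). Of the markers of the labelled cell type, PAX8, a transcription factor of ovarian carcinoma, stood at 128, 630, 74.6 and 176 FPKM in HeyC2 control, HeyC2 TET1, SKOV3 control and SKOV3 TET1. MUC16 did not pass 0.05 FPKM and WT1 did not pass 0.71 FPKM in any library, and CDH1 was listed at 0 in both HeyC2 libraries. Of 7 markers of other cell types, 1 or 2 reached 1 FPKM in a library, among them CD68 in all 4, and CD3E and MYH7 were listed at 0 in all 4.

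TET1 is a dioxygenase that oxidises 5-methylcytosine in DNA to 5-hydroxymethylcytosine, a step towards demethylation. Among the 92 genes are those of chemokines, of phosphatases that switch off MAP kinases, and of the starter of blood clotting. Others encode an inhibitor and a ligand of Wnt signalling, inhibitors of basic helix-loop-helix factors, and epithelial and basement membrane proteins.

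Over the 92 genes, the relative change was 0.80 to 4.09 in HeyC2, with a median of 1.12, and -6.24 to -0.81 in SKOV3, with a median of -1.31. Both changes were at least 1 in size for 40 genes, at least 1.5 for 12 and at least 2 for 9. Of all genes tested in both lines, 6.77% reached the limit in HeyC2 and 11.1% in SKOV3, each in the direction used here, and 6.59% and 11.2% reached the limit on the other side. Both limits together were met by 0.774%. The mirror image, lower in HeyC2 and higher in SKOV3, was met by 108 genes or 0.908%, while 185 genes or 1.56% were higher in both lines and 172 or 1.45% were lower in both. As deposited, all 92 were higher in HeyC2 TET1 than in its control and lower in SKOV3 TET1 than in its control, and the same held for all 92 before the GAPDH scaling. Both follow from the limits and the size of the line medians, so they are no separate finding.

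**Figure D1:**
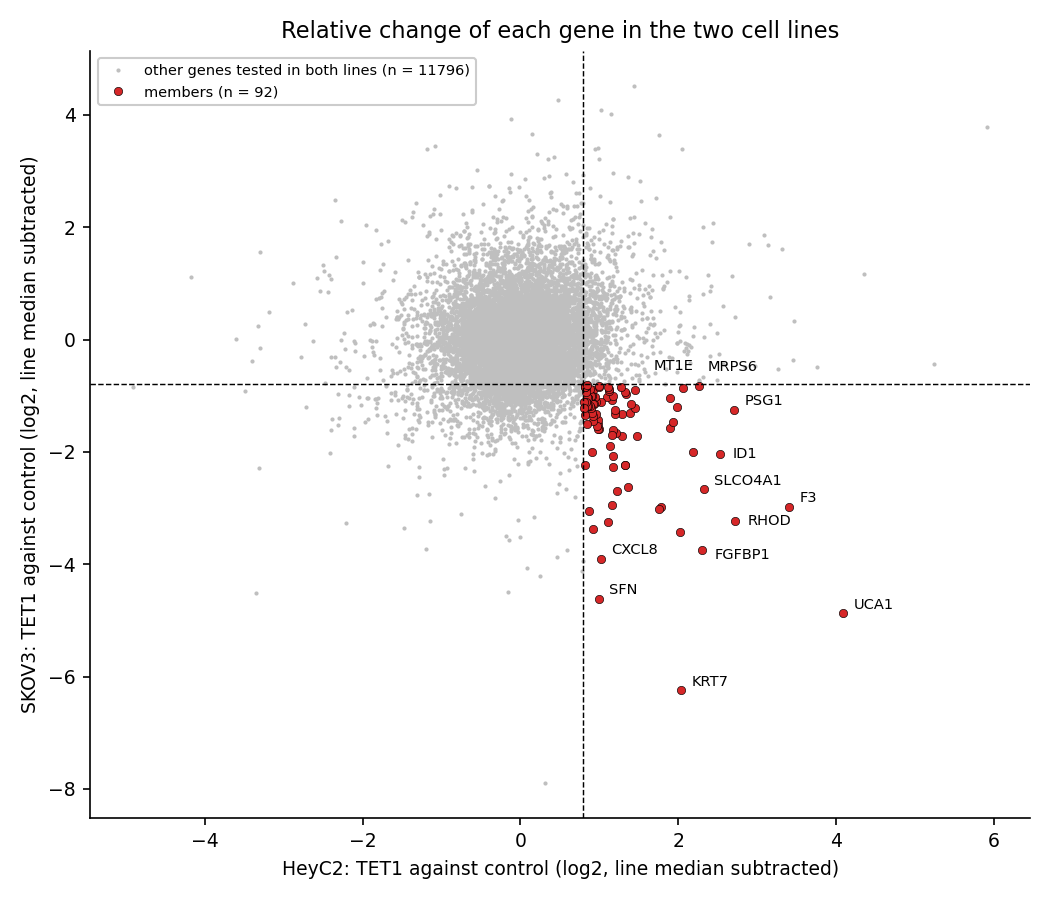
Relative change of each gene tested in both lines, HeyC2 on the horizontal axis and SKOV3 on the vertical axis, both in log2 with the line's median subtracted. The 92 members, in red, fill the corner beyond the dashed limits of 0.8 and -0.8, from genes near a limit such as MRPS6 in SKOV3 (-0.82) to UCA1 and KRT7 far from them.

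The gene with the largest pair of changes was UCA1, a long noncoding RNA known from bladder and other carcinomas, at chr19:15939016-15947138 of GRCh37. It stood at 1.77 FPKM in HeyC2 control and 143 in HeyC2 TET1, against 93.2 in SKOV3 control and 3.86 in SKOV3 TET1. Its relative change was 4.09 ± 0.28 in HeyC2 and -4.87 ± 0.23 in SKOV3, where ± is the counting standard error from the estimated fragments. It covers counting error only and not the spread between cultures. In RNA from whole cultures, more cells expressing a gene and more RNA per cell cannot be told apart. The pair of lines thus exchanged places: UCA1 was a SKOV3 transcript in the controls and a HeyC2 transcript in the TET1 libraries.

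F3, tissue factor, the cell-surface receptor that starts blood clotting, lies at chr1:94994729-95007315 of GRCh37. It was 17.3 FPKM in HeyC2 control and 595 in HeyC2 TET1, and 266 in SKOV3 control and 50.03 in SKOV3 TET1, with relative changes of 3.41 ± 0.092 and -2.97 ± 0.067. LINC01057, now named SLC44A3-AS1, which RefSeq gives as a long noncoding RNA and GENCODE as a transcribed processed pseudogene, lies 72055 bases from F3 with no tested gene between them. It followed the same course, from 3.13 to 41.5 FPKM in HeyC2 and from 93.7 to 16.5 in SKOV3. LINC01057 overlaps SLC44A3 on the other strand, and SLC44A3 went the same way in HeyC2, from 0.20 to 4.72 FPKM, but the opposite way in SKOV3, from 5.51 to 18.3 FPKM. Whether the libraries kept strand is not given in the sources used here, so reads of overlapping genes cannot be told apart.

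KRT7, keratin 7 of simple epithelia at chr12:52626304-52645970 of GRCh37, had the highest mean level of all 92 genes. Its FPKM were 289.7 in HeyC2 control, 3637 in HeyC2 TET1, 1537 in SKOV3 control and 29.6 in SKOV3 TET1. The relative changes were 2.04 ± 0.029 and -6.24 ± 0.099, and in SKOV3 it ranked 2 from the bottom of 13339 genes. The gene below it was another simple keratin, KRT19, which stood at 255 FPKM in SKOV3 control and 0.62 in SKOV3 TET1 but only at 0.62 and 5.14 FPKM in the HeyC2 libraries. KRT8 and KRT18, which pair with each other in filaments, differed from the median gene by no more than 0.31 in either line. Of 18 keratins listed 6 could be tested in both lines, and KRT7 was the only member.

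The other leading genes are named here by the rule that takes the 14 with the largest smaller change. RHOD, a small GTPase of endosome movement, stood at 1.12 FPKM in HeyC2 control and 41.6 in HeyC2 TET1, and at 28.9 and 3.78 in SKOV3. SLCO4A1, an organic anion transporter, was 55.1 and 858 FPKM in HeyC2 and 42.99 and 9.46 in SKOV3. FGFBP1, a carrier that releases fibroblast growth factors from the matrix, was 169 and 2563 FPKM in HeyC2 and 118 and 12.2 in SKOV3. SLCO4A1 and FGFBP1 began at close levels in both controls and ended far apart, whereas RHOD began near 0 in HeyC2. The relative changes of these genes were 2.72, 2.33 and 2.30 in HeyC2 and -3.24, -2.66 and -3.75 in SKOV3, for RHOD, SLCO4A1 and FGFBP1 in that order. SLCO4A1-AS1, an RNA that overlaps SLCO4A1 on the other strand, went the same way, from 3.76 to 38.9 FPKM in HeyC2 and from 1.12 to 0.48 in SKOV3.

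**Figure D2:**
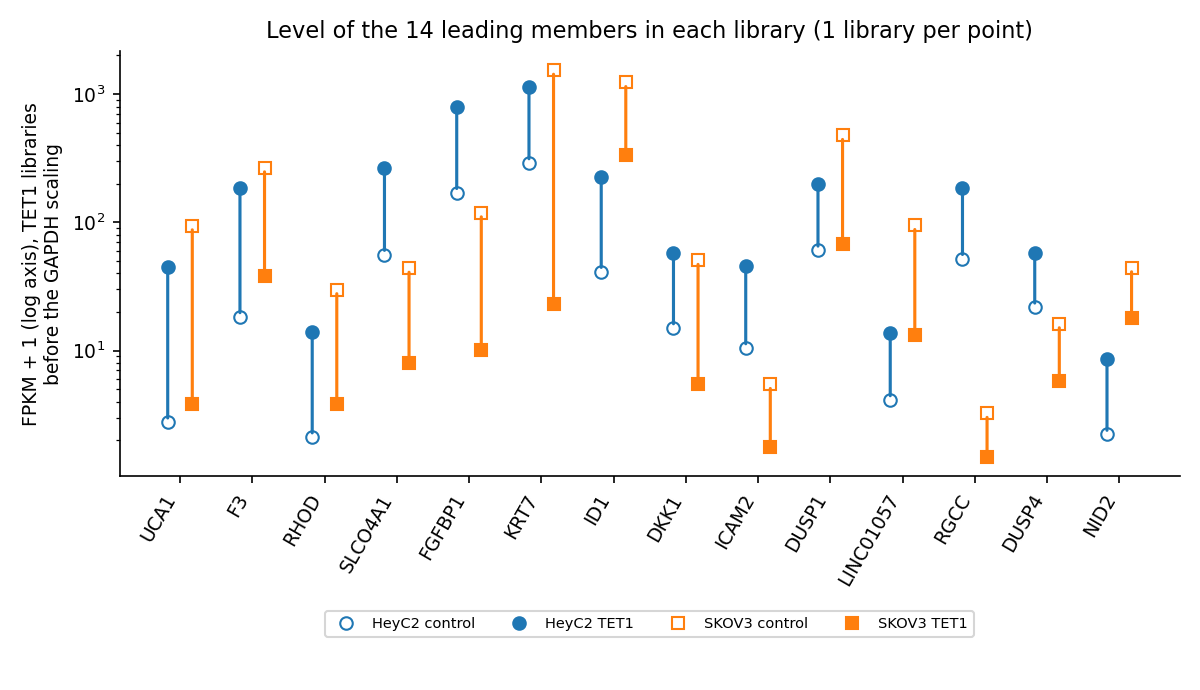
FPKM plus 1 of the 14 leading members in each of the 4 libraries, on a log axis, with the TET1 libraries shown before the GAPDH scaling so that lines can be compared. Open symbols are controls and filled symbols TET1 libraries, each 1 library. In HeyC2 (blue) every filled point lies above its open point and in SKOV3 (orange) below it, and 9 of the 14 genes start higher in SKOV3 while 12 end higher in HeyC2.

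The exchange of places was common among the 92. In the controls 68 genes were higher in SKOV3 and 24 in HeyC2. In the TET1 libraries before scaling, 70 were higher in HeyC2, 21 in SKOV3 and 1 was equal, and 46 genes had swapped the order of the lines. The median difference between HeyC2 and SKOV3 was -1.37 log2 in the controls and 1.16 in the TET1 libraries, against -0.23 and -0.33 over all genes tested. The control levels are part of the values that selected the genes, so this describes the selection and is no separate finding.

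Inflammatory signalling genes, many of which NF-kB is known to induce, made up 9 of the 92. Such role groups were assigned to the members only, so their sizes have no share over all genes beside them. CXCL1, CXCL2 and CXCL8 are neutrophil-attracting chemokines in 1 cluster on chromosome 4, with CXCL8 at chr4:74606236-74609433, CXCL1 at chr4:74735110-74737025 and CXCL2 at chr4:74962757-74964913 of GRCh37. CXCL8 stood at 21.7 FPKM in HeyC2 control and 139.5 in HeyC2 TET1, and at 74.3 and 6.58 in SKOV3. CXCL1 was 25.1 and 174 FPKM in HeyC2 and 151 and 60.3 in SKOV3. CXCL2 was lower throughout, at 2.08 and 16.6 FPKM in HeyC2 and 15.7 and 9.2 in SKOV3. In each of these chemokines SKOV3 control was above HeyC2 control, and the relative change was near 1 in HeyC2 (1.02, 1.13 and 0.91) but spread from -3.90 to -1.30 in SKOV3. CXCL1 and CXCL2 are close copies, so reads may have been split between them.

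The sequences just before the starts of these genes are shown because the chemokines sit in 1 cluster and because NF-kB and AP-1 motifs near such starts are textbook features of them. They are RefSeq sequence on GRCh38.p14, 5′ to 3′ on the gene's strand, and end at the base before the start. Positions on that build are chr4:73869243-73869392 (+) for CXCL1, chr4:74099196-74099345 (-) for CXCL2 and chr4:73740419-73740568 (+) for CXCL8. Capitals mark an NF-kB motif in CXCL1 and CXCL2, and in CXCL8 an AP-1 motif (TGANTCA) followed by a TATA box (TATAAA). The NF-kB motif was searched in the classical form that begins with GGG. The textbook NF-kB site of CXCL8 begins with GGAA, so it was not matched and stands in lower case.
CXCL1: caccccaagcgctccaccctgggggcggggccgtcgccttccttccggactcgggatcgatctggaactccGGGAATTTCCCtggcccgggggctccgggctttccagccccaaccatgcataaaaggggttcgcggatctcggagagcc
CXCL2: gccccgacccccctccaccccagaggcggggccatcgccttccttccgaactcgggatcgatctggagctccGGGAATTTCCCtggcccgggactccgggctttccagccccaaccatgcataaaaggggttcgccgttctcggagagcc
CXCL8: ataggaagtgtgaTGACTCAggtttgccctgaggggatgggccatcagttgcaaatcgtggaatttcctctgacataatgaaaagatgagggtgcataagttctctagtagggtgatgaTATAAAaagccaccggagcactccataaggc
The longest run common to CXCL1 and CXCL2 is 42 bases and lies between the NF-kB motif and the start, from 57 to 16 bases before the start of CXCL1. A match to these letters is a description of the window and not a bound site.

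The rest of the inflammatory group lay on other chromosomes. TNF, the cytokine that itself activates NF-kB, was 6.99 and 55.8 FPKM in HeyC2 control and TET1, and 4.5 and 0.27 in SKOV3, where the last value rests on about 2 fragments. CSF1, the macrophage growth factor, was 39.01 and 214 FPKM in HeyC2 and 56.3 and 17.4 in SKOV3. SOD2, the mitochondrial superoxide dismutase, was 61.5 and 373 FPKM in HeyC2 and 159.6 and 81.6 in SKOV3. Before the GAPDH scaling HeyC2 TET1 stood at 17.2, 66.2 and 115 FPKM, above every SKOV3 library for TNF and CSF1 and below SKOV3 control for SOD2. ZFP36, which speeds the decay of TNF mRNA, had relative changes of 0.89 and -1.21. The receptors TNFRSF10A, which binds the death ligand TRAIL, and RELT had 0.92 and 0.85 in HeyC2 and -1.37 and -1.19 in SKOV3.

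Of 36 NF-kB inflammatory genes listed, 23 could be tested in both lines and 6 were members: CXCL1, CXCL2, CXCL8, CSF1, TNF and SOD2. The list's median relative change was 0.15 in HeyC2 and -1.44 in SKOV3, against 0.01 and -0.04 over all genes tested. In HeyC2 8 of the 23 reached the upper limit and 3 the lower one, against 3 and 15 in SKOV3. Over all genes tested, 6.77% and 6.59% did so in HeyC2, and 11.2% and 11.1% in SKOV3. These medians and counts include the 6 members, which the rule put beyond the upper HeyC2 limit and the lower SKOV3 limit. Among the 23, the upper HeyC2 limit was otherwise reached only by NFKBIA (1.59) and TNFAIP2 (0.87). Of the listed genes too low to test in SKOV3, PTX3 (2.16), ICAM1 (1.74) and IL11 (1.04) also passed it. CSF2 (-0.99) and CSF3 (-1.27) passed the lower HeyC2 limit, so HeyC2 was mixed. In SKOV3 the lower limit was also reached by genes that were not members, among them IL32 (-4.21) and IL1A (-2.08). IL1B, the most abundant listed cytokine in HeyC2, went from 1271 to 1463 FPKM there, a relative change of -1.41, and from 2.76 to 0.31 FPKM in SKOV3. NFKBIA, the inhibitor that NF-kB itself induces, was 43.6 and 408 FPKM in HeyC2 and 46.5 and 46.9 in SKOV3. C3 was lower in both lines, at -3.35 and -4.51. The members among the listed genes were chosen by these same values and are no evidence for the list.

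Growth signal inhibitors and transcription regulators, put together in 1 group here, were the largest group, with 15 genes. The group's medians, bounded by the rule that chose the genes, were 1.17 in HeyC2 and -1.69 in SKOV3. Several of the 15 genes switch off a pathway from inside or outside the cell. The group also holds the Wnt ligand WNT7A, the Eph ligand EFNB1 and FGFBP1, which releases growth factors. DUSP1, a phosphatase that inactivates MAP kinases, was 59.6 FPKM in HeyC2 control and 635 in HeyC2 TET1, and 476 and 89.8 in SKOV3. DUSP4, of the same family, was 20.8 and 185 FPKM in HeyC2 and 15.2 and 6.43 in SKOV3. The family did not move as a unit, since DUSP5 had relative changes of -1.15 in HeyC2 and -2.75 in SKOV3 and DUSP6 -0.38 and -0.20. Of 23 ERK feedback genes tested, 4 reached the upper and 1 the lower limit in HeyC2, and 1 and 9 did so in SKOV3. The shares over all genes tested were 6.77% and 6.59% in HeyC2 and 11.2% and 11.1% in SKOV3, in the same order. The list counts include DUSP1 and DUSP4, which the rule put beyond the upper HeyC2 limit and the lower SKOV3 limit.

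ID1 and ID3 block basic helix-loop-helix factors and are classical targets of BMP signalling. ID1 stood at 40.3 FPKM in HeyC2 control and 729 in HeyC2 TET1, and at 1232 and 451 in SKOV3, with relative changes of 2.53 ± 0.1 and -2.04 ± 0.038. ID3 was 5.16 and 39.8 FPKM in HeyC2 and 321 and 50.1 in SKOV3. Both were over 10 times higher in SKOV3 control than in HeyC2 control. The other ID genes were lower in SKOV3 TET1 too, ID2 from 48.6 to 21.3 FPKM and ID4 from 79.8 to 10.2 FPKM, but had under 1 FPKM on average in HeyC2 and could not be members. FSTL3, a secreted binder of activins, had 1.46 and -0.89. Over the 27 tested genes of the TGF-beta and BMP list the medians were 0.24 and 0.73. In SKOV3 13 of them reached the upper limit and 7 the lower one, against 11.2% and 11.1% of all genes tested. The 7 were the members ID1, ID3 and FSTL3, by the rule that chose them, and SMAD6 (-1.30), BAMBI (-1.22), INHBA (-1.02) and TGFBR3 (-0.95).

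DKK1, a secreted inhibitor of Wnt signalling, was 14.03 FPKM in HeyC2 control and 185 in HeyC2 TET1, and 49.6 and 6.06 in SKOV3. Its relative changes were 2.02 ± 0.12 and -3.43 ± 0.21. WNT7A, a Wnt ligand, had 0.90 and -1.01. The 27 tested Wnt regulators and targets had medians of 0.09 and 0.35. EFNB1, a membrane-bound ligand of Eph receptors, was 36.6 and 214 FPKM in HeyC2 and 33.3 and 11.8 in SKOV3. Of the remaining regulators, the transcription factor KLF5 had 0.92 and -1.44, the zinc finger gene ZNF367 1.17 and -1.69, and INPPL1, a phosphatase of inositol lipids, 0.95 and -1.03. CCDC85B and CCDC85C, a related pair of coiled-coil genes, had 0.99 and 1.2 in HeyC2 and -1.59 and -1.33 in SKOV3. CCDC85B was also the fifth gene by mean level, at 245 and 1492 FPKM in HeyC2 and 200.4 and 99.9 in SKOV3. VASN, a membrane protein that traps TGF-beta, was near 0 in HeyC2 control (0.1 FPKM) and its change was within 2 counting standard errors.

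A TATA box was more frequent before the starts of the members than before genes at large. Promoter windows of 300 bases, from 250 before to 50 after the start, were found by symbol for 62 of the 92 members and 9006 of the tested genes. TATAAA on the gene's strand occurred in 10 of the 62 (16.1%) and in 2.98% of the 9006. Beginning 40 to 20 bases before the start, where the box works, it occurred in 7 members (11.3%) and 1.27% of genes: ADM, CXCL8, DKK1, DUSP1, ID1, TFRC and TNF. The remaining 6 are shown because they carry this difference, with the 60 bases before the start and TATAAA in capitals, from RefSeq on GRCh38.p14. They lie at chr11:10305013-10305072 (+) for ADM, chr10:52314221-52314280 (+) for DKK1, chr5:172771196-172771255 (-) for DUSP1, chr20:31605229-31605288 (+) for ID1, chr3:196082091-196082150 (-) for TFRC and chr6:31575505-31575564 (+) for TNF.
ADM: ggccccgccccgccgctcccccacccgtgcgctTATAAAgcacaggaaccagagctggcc
DKK1: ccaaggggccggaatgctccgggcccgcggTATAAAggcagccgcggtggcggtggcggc
DUSP1: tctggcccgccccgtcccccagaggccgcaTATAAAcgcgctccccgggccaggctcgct
ID1: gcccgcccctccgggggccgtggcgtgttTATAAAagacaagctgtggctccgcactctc
TFRC: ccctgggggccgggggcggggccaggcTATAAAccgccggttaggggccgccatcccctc
TNF: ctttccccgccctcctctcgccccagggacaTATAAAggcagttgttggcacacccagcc
In all of these the capitals begin 27 to 33 bases before the start. The members were not compared with genes of like function or level, so the difference is a description.

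Other motifs were searched on both strands of the same windows. AP-1 (TGANTCA) was present in 6 of 62 members (9.68%) against 4.34% of genes, namely ANKRD1, CXCL8, F3, LAMA3, S100A3 and SFN. The cyclic AMP element (TGACGT) was present in 11 (17.7%) against 12.1%, and the CArG box of serum response factor in 2 (3.23%) against 0.90%. The NF-kB motif, in the form that begins with GGG, was no more frequent than elsewhere, in 3 members (4.84%, CXCL1, CXCL2 and TINAGL1) against 6.5%. Nor was the TEAD motif (GGAATG), in 9.68% against 10.7%, and the E-box (CACGTG) was present in 4.84% against 10.1%. The GC box (GGGCGG) was present in 46 members (74.2%) against 71.6% of genes. A CpG-rich window, with CpG observed over expected of at least 0.6, was found for 47 members (75.8%) against 85.5% of genes.

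Vascular and cell-surface proteins other than F3 made up 8 genes. ICAM2, an adhesion ligand of leukocyte integrins, was 9.5 and 144 FPKM in HeyC2 control and TET1 and 4.46 and 1.05 in SKOV3. RGCC, a cell cycle regulator first described as a complement response gene, was 51.1 and 593 FPKM in HeyC2 and 2.25 and 0.65 in SKOV3. S1PR1, the sphingosine 1-phosphate receptor of endothelium, was 11.1 and 81.2 FPKM in HeyC2 and 1.61 and 0.85 in SKOV3. These genes were HeyC2 transcripts from the start, and the SKOV3 side of their pattern is a low level going lower. RGCC in SKOV3 rests on about 12.7 and 2.6 fragments. CDH5, the cadherin that defines endothelium, stood beside them at 18.9 and 306 FPKM in HeyC2 and at 0.11 and 0.26 in SKOV3, while the endothelial marker PECAM1 did not pass 0.10 FPKM in any library. The summed level of the 7 markers of other cell types, as deposited, was 75.4 and 598 FPKM in HeyC2 and 12.9 and 29.7 in SKOV3. In HeyC2 almost all of it was CDH5 and CD68, the latter at 56.2 and 292 FPKM.

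ADM, the vasodilating peptide adrenomedullin, was 36.6 and 257 FPKM in HeyC2 and 63.2 and 11.5 in SKOV3, while the 24 tested HIF targets it is listed with had medians of 0.04 and 0.13. PODXL, a sialomucin of podocytes and carcinomas, had relative changes of 1.98 and -1.19. PSG1, a pregnancy-specific glycoprotein, was 1.14 and 41.8 FPKM in HeyC2 and 2.49 and 1.21 in SKOV3. LY6K, a GPI-anchored protein of testis and tumours, went from 30.5 to 175 FPKM in HeyC2 and from 4.5 FPKM in SKOV3 control to a listed 0 in SKOV3 TET1. PODXL and ADM were above 10 FPKM in all 4 libraries, whereas PSG1 and LY6K were under 5 FPKM in SKOV3 throughout.

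Epithelial, cytoskeletal and matrix proteins made up 13 genes. SFN, the 14-3-3 sigma protein of squamous epithelia, had the fourth lowest relative change of all genes in SKOV3. It stood at 59.2 and 365 FPKM in HeyC2 and 164 and 9.18 in SKOV3, with relative changes of 0.99 ± 0.081 and -4.61 ± 0.20. SFN was the only member among the 26 tested p53 targets it is listed with, whose medians were -0.03 in HeyC2 and 0.34 in SKOV3.

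NID2, a nidogen that links laminin and collagen IV in basement membranes, was 1.22 and 24.8 FPKM in HeyC2 and 43.4 and 22.98 in SKOV3. LAMA3, a laminin chain, was 12 and 70.8 FPKM in HeyC2 and 21.5 and 15.5 in SKOV3. LAMB3, another laminin chain, was not a member, with relative changes of 0.16 and -0.74. NID1, the other nidogen, went the opposite way in SKOV3, from 0.20 to 11.5 FPKM. Over the 38 tested matrix genes the medians were 0.13 and 0.23. TINAGL1, a matrix protein related to cathepsin B, was 239.8 and 1393 FPKM in HeyC2 and 57.3 and 45.8 in SKOV3. OLFML2B, an olfactomedin-like matrix protein, had 1.17 and -2.08.

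Members on the YAP/TEAD target list numbered 3: F3, DLC1 and ANKRD1. DLC1, a GTPase-activating protein, was 34.04 and 209.8 FPKM in HeyC2 and 39.4 and 21.4 in SKOV3. ANKRD1, an ankyrin repeat protein of muscle and stretched cells, was 0.07 and 6.34 FPKM in HeyC2 and 16.5 and 4.48 in SKOV3, with an estimated 0.8 fragments in HeyC2 control. Over the 27 tested targets the medians were 0.21 and -0.70. In HeyC2 7 were beyond the upper and 1 beyond the lower limit, and in SKOV3 1 and 13. Over all genes tested the shares were 6.77% and 6.59% in HeyC2, and 11.2% and 11.1% in SKOV3. The medians and counts of the list include the 3 members, which the rule put beyond the upper HeyC2 and the lower SKOV3 limit. CTGF and CYR61, the best known targets, had 0.30 and 0.18 in HeyC2 and -0.94 in SKOV3 each. The remaining genes of the group were the LIM-domain gene PDLIM2 (1.13 and -0.92) and the FERM-domain genes FRMD3 (0.93 and -1.15) and FRMD8 (0.80 and -1.23).

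**Figure D3:**
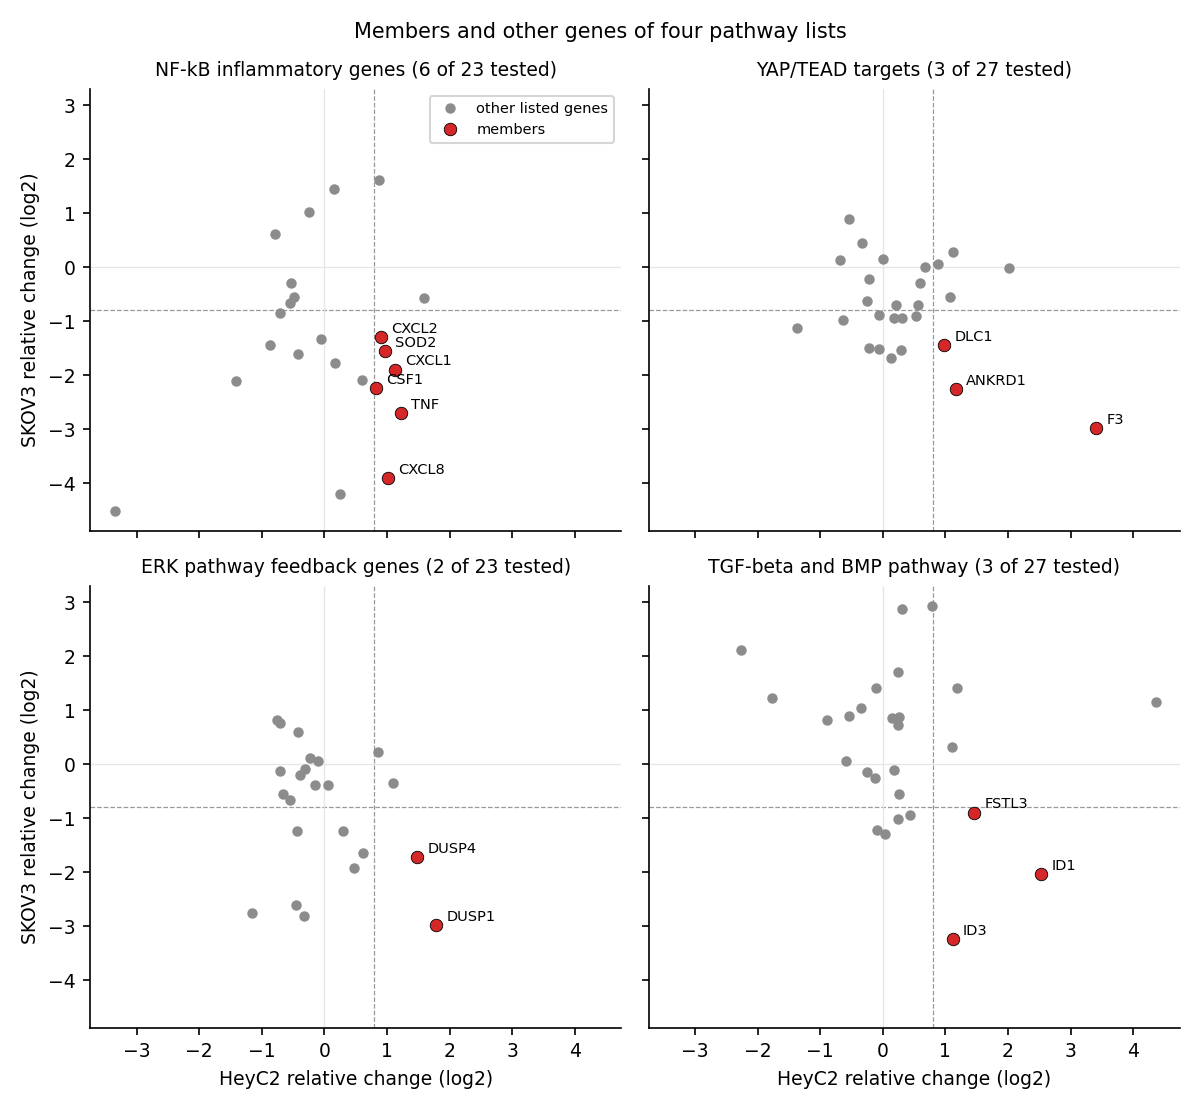
Relative change in HeyC2 (horizontal) and SKOV3 (vertical), in log2, of the tested genes of 4 lists, with members in red and other listed genes in grey; dashed lines mark 0.8 and -0.8. Most NF-kB and YAP/TEAD genes lie below 0 in SKOV3 on both sides of 0 in HeyC2, and the TGF-beta and BMP genes lie on both sides of 0 in SKOV3, with ID3 (-3.24) the lowest.

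Transporters and metal-handling genes numbered 5. MT1E, a metallothionein that binds zinc and copper, was 194 and 2484 FPKM in HeyC2 but only 1.67 and 1.2 in SKOV3, or about 6.9 and 3.5 fragments. It was the third gene by mean level, and its SKOV3 value was within 2 counting standard errors of 0. Metallothionein genes are close copies, so their values are uncertain; the most abundant, MT2A, had 0.33 and -1.16. SLC39A4, a zinc importer, was 5.55 and 73.3 FPKM in HeyC2 and 78.4 and 57.1 in SKOV3. TFRC, the transferrin receptor of iron uptake, was 21.7 and 123 FPKM in HeyC2 and 106 and 55.9 in SKOV3. SLC2A6, a sugar transporter of the GLUT family, had 0.90 and -1.01.

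The 3 calcium-binding genes were S100A3, NCALD and ANXA3. S100A3 was 5.63 and 52.2 FPKM in HeyC2 and 55.4 and 33.1 in SKOV3. It overlaps S100A4 on the same strand, which was 2.61 and 51.8 FPKM in HeyC2 and 1431 and 1287 in SKOV3 and just missed the limit there at -0.74. NCALD, a neuronal calcium sensor, had 1.29 and -1.33, and the annexin ANXA3 had 1.2 and -1.25. Of 10 tested S100 genes S100A3 was the only member.

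Enzymes of metabolism made up 11 genes with a narrow range in HeyC2, 0.85 to 1.33. SULT1A3 and SULT1A4, copies of the sulfotransferase that inactivates dopamine, had the same value in every library: 0.91 and 13.6 FPKM in HeyC2 and 14.01 and 3.79 in SKOV3. They are counted as 2 members but are 1 measurement, which leaves 91 distinct sets of values. SLX1A-SULT1A3 and SLX1B-SULT1A4, which overlap them on the same strand, were each 4.32 and 22.4 FPKM in HeyC2 and 8.76 and 22.7 in SKOV3. These overlapping entries thus rose in SKOV3 where SULT1A3 and SULT1A4 fell. How reads were divided between them was not tested, so the SKOV3 fall is uncertain. GDA, guanine deaminase, was 76.3 and 546 FPKM in HeyC2 and 52.5 and 24.3 in SKOV3. LPCAT1 and AGPAT5, acyltransferases of phospholipid synthesis, had 1.17 and 0.85 in HeyC2 and -1.0 and -0.81 in SKOV3. The peptidase CPE, the phosphodiesterase PDE7B, the phosphatase PUDP, the hydrolase ABHD16B and MSRA, which repairs oxidised methionine, lay between 0.94 and 1.32 in HeyC2 and between -1.61 and -0.94 in SKOV3.

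Genes of DNA replication, RNA handling and membrane traffic mostly lay close to the limits. PCNA, the sliding clamp of DNA polymerase, was 57.1 and 315 FPKM in HeyC2 and 208 and 144 in SKOV3. It was the only member of 36 tested cell cycle genes, whose medians were -1.27 and -1.12. GINS2 of the replicative helicase, the kinetochore gene DSN1 and MCPH1 of chromosome condensation had 0.95, 0.84 and 1.12 in HeyC2 and -1.33, -1.02 and -0.89 in SKOV3. Of 7 genes of RNA handling and protein synthesis, MRPS6, a mitochondrial ribosomal protein, stood out in HeyC2, at 51.1 and 766 FPKM against 128 and 109 in SKOV3. It overlaps the inositol transporter gene SLC5A3 on the same strand, which was 4.72 and 75.2 FPKM in HeyC2 and 14.6 and 19.3 in SKOV3. RBPMS, an RNA-binding protein, had 0.99 and -1.51, and LYAR, CSTF3, CWC15, CCDC86 and MEX3D lay between 0.81 and 1.0 in HeyC2 and between -1.35 and -0.83 in SKOV3. The 6 membrane traffic and protein processing genes were SDPR (1.45 and -1.22), a caveolar protein now named CAVIN2, NMT2 (1.27 and -0.84), which attaches myristate to proteins, and PSEN2, EHD1, GNPTAB and CLPB, which lay between 0.82 and 1.0 in HeyC2 and between -0.87 and -0.83 in SKOV3. The 77 tested nuclear-encoded subunits of oxidative phosphorylation had medians of -0.05 and -0.20.

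The last group holds 8 genes, of which GENCODE gives 5 as long noncoding RNAs, 2 as pseudogenes and TOPORS-AS1, named as an antisense RNA, as protein-coding. Besides UCA1 and LINC01057, ESRG, an RNA known from pluripotent cells, was 5.11 and 34.4 FPKM in HeyC2 and 192 and 26.9 in SKOV3. LOC284454, whose span holds MIR23A and MIR27A, was 23.5 and 147 FPKM in HeyC2 and 42.5 and 20.7 in SKOV3. The others were LOC100268168, TOPORS-AS1, FUT8-AS1 and SLC7A5P1, and none of these reached 2 counting standard errors in both lines. SLC7A5P1 is a copy of part of SLC7A5, which was 16.02 and 8.93 FPKM in HeyC2 and 424 and 239 in SKOV3, so reads could have been shared in SKOV3. PROSER2 and C11orf68, whose roles are not stated here, had 1.12 and 0.89 in HeyC2 and -0.85 and -1.18 in SKOV3.

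Of the 33 gene lists examined, 18 held at least 1 member. 28 members were on a list and 64 on none. The share of all tested genes on a list is not given here, and the lists were written with earlier results known. These counts are therefore no result about the members. The 15 lists with no member included the interferon-stimulated genes (29 tested, medians -0.41 and 0.42), the ATF4 targets (30 tested, -0.71 and 1.11), the Notch pathway, the integrin subunits, the HOX genes and the MHC class I genes. For the interferon and ATF4 lists the medians thus lay on the mirror side, below the median gene in HeyC2 and above it in SKOV3.

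The members had shorter transcripts than genes at large, with a median of 2332 bases in the GENCODE annotation against 3255, and fewer exons, 5 against 9. Their transcripts had a GC content of 52.3% against 48.2%. Of the members 92.4% were protein-coding against 94.3%. The mean level over the 4 libraries, as deposited, was 44.2 FPKM against 20.1. That mean uses the same FPKM that chose the genes, with the TET1 libraries after the GAPDH scaling, so it is no separate finding. These features were compared with all tested genes, without regard to level.

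Members were unevenly spread over the chromosome arms. On the short arm of chromosome 8 there were 8 members of 142 tested genes (5.63%), namely DLC1, DUSP4, MSRA, MCPH1, AGPAT5, PDLIM2, TNFRSF10A and RBPMS, and on 11q 10 of 448 (2.23%), against 0.786% over all arms. Both arms as a whole leaned the same way: the median relative change of 8p was 0.40 in HeyC2 and -0.31 in SKOV3, and of 11q 0.38 and -0.35. Without the members these medians were 0.37 and -0.27 on 8p and 0.38 and -0.34 on 11q. On 8p 75.4% of genes lay above the HeyC2 median and 66.2% below the SKOV3 median, and on 11q 78.1% and 69.4%. These arms were singled out after their values were seen, and no cause was tested. The other 74 members were 0.666% of the genes outside these arms.

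**Figure D4:**
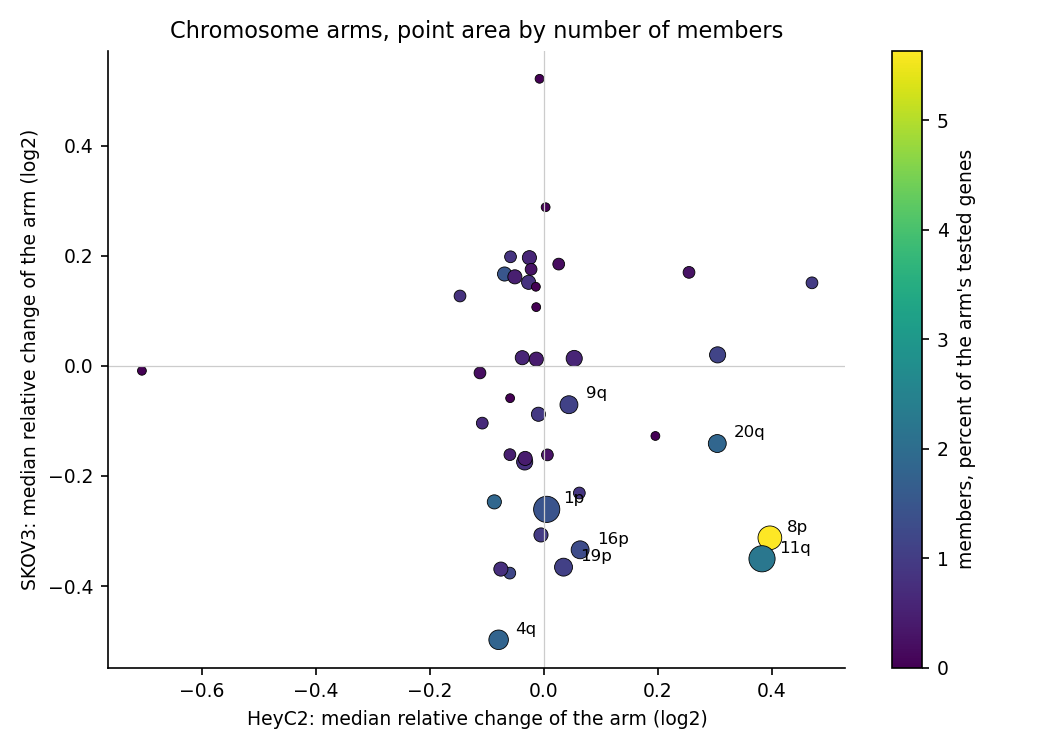
Median relative change of the tested genes of each chromosome arm with at least 20 genes, HeyC2 on the horizontal and SKOV3 on the vertical axis, in log2. Point area grows with the number of members and colour gives their share of the arm's tested genes. The arms 8p (5.63%) and 11q (2.23%) lie apart from the rest, high in HeyC2 and low in SKOV3.

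Some members were close neighbours, for which no share over all tested genes is given here. Besides the chemokine cluster and F3 with LINC01057, INPPL1 and CLPB on 11q were 46348 bases apart and MCPH1 and AGPAT5 on 8p 60134 bases apart, with no tested gene between either pair. CCDC85B and C11orf68 on 11q were 25175 bases apart with 1 tested gene between them. The same held for SULT1A4 and SLC7A5P1, 148137 bases apart, and for DUSP1 and LOC100268168, 183591 bases apart.

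Depth limits some of these values. In 81 of the 92 genes both relative changes were larger than 2 counting standard errors. In 11 they were not: RGCC, LOC100268168, ANKRD1, SLC7A5P1, MSRA, PDE7B, LY6K, MT1E, TOPORS-AS1, VASN and FUT8-AS1. The standard error is that of the plain fragment ratio, whereas the relative change holds the pseudocount, which shrinks changes of low genes. The 11 therefore include genes with unlike fragment numbers, such as LY6K in SKOV3 (79.1 against 0) and PDE7B in HeyC2 (5.4 against 60.8). The lowest library held an estimated 20 fragments or more for 71 genes and fewer for 21. At the HeyC2 limit the last genes inside were FRMD8 (0.80), MEX3D (0.81) and CLPB (0.82), and the first outside were MSLN (0.795, with -3.93 in SKOV3), BCAR3 (0.79) and TRNP1 (0.79). At the SKOV3 limit the last inside were AGPAT5 (-0.81), MRPS6 (-0.82) and CSTF3 (-0.83), and the first outside were FTH1 (-0.797, with 1.84 in HeyC2), HPCAL1 (-0.79) and CTSB (-0.79).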

How the data were processed

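RNA was sequenced from HeyC2 and SKOV3 cells carrying pCMV6/TET1 or the empty plasmid, with 1 library per condition and the groups taken from the sample labels. The authors prepared paired-end TruSeq libraries, aligned the reads to hg19 with Bowtie2 (2.2.6) and quantified them with RSEM (1.2.17), per the submitters' processing notes. The deposited values are FPKM with 2 decimals in 1 table per line. The annotation and the read totals are not given in the sources used here. In the TET1 columns 99.8% (HeyC2) and 99.7% (SKOV3) of distinct values below 40 FPKM lay on a grid of steps of 1 constant (3.23 and 1.35), and GAPDH equals the control.

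The relative change was computed with Python 3.11.15, numpy 2.4.6 and pandas 2.3.3, and the steps were tested on simulated data. Fragments were estimated as FPKM before the scaling, times transcript length less 150 bases in GENCODE, times the depth, and the counting standard error from those fragments with at least 0.5 in each library. The pseudocount did not enter that standard error. Depth limits low genes: under 20 fragments a value is imprecise. 24797 symbols (93.6%) and all 92 members matched GENCODE on GRCh37 (hg19), which gives the gene positions. Promoter sequences come from RefSeq on GRCh38.p14 by symbol.

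The members and the 33 lists were chosen with earlier results of these data known. Named with values were TET1, the 14 members with the largest smaller change, the 5 with the highest mean level, members on a list, the 3 genes on each side of each limit, and other members by role; other genes are named beside their list or as overlapping or copied genes. A few members are not reported here. With 1 library per condition, only the counting error of a difference could be estimated, and not the spread between cultures. Alternatives for the pseudocount, the filter, the centring, the scaling and the limit were tried, and a correction for GC content and length was added after seeing the data.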

Additional observations from a re-analysis of the deposited data

Results flagged for a closer look

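All 92 genes were higher in HeyC2 TET1 and lower in SKOV3 TET1 than in their controls on the FPKM as deposited. This opposite direction is what the genes were chosen for, and with 1 library per condition the difference between the cell lines was not tested.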

How the results depend on the processing

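No paired analysis was possible because each condition has 1 library and no replicate numbers are shared. The number of members depended on the settings. Against 92, it was 214 without the filter on low values (46 of the 92 among them), 54 at a mean FPKM of at least 5 (54), 239 without centring (40), 59 with upper-quartile scaling (55), 235 at a limit of 0.6 (92), 40 at 1 (40) and 12 at 1.5 (12). A pseudocount of 0.1 gave 132 (76) and 0.01 gave 138 (74), TPM gave 103 (71), values before the GAPDH scaling gave 80 (69), and a correction for GC content and transcript length, added after seeing the data, gave 84 (74). Without the filter, 10172 genes listed at 0 in both HeyC2 libraries and 8833 in SKOV3 enter the median, which becomes 0.62 and 0.08 log2. Without the filter they were 0.53 in HeyC2 and -0.12 in SKOV3 for NF-kB genes, 1.2 and -0.20 for YAP/TEAD targets, and 0.63 and 0.14 for ERK feedback genes, whose sign changed in both lines. Without centring they were 1.76 and -0.85, 1.82 and -0.12, and 1.30 and 0.20 in that order. The 92 members kept their direction in both lines under each alternative that gave them a value, 1634 values in all, of which 806 moved by less than 1 counting standard error. Without centring or without the filter each line only shifts by a constant, so the kept direction followed from the limits of 0.8 and -0.8. The kept direction is therefore no check of the members. In 11 genes a change was within 2 counting standard errors, which do not allow for the pseudocount.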

Other observations

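Some genes that overlap a member went the opposite way in SKOV3. KRT86, a hair keratin annotated over the span of KRT7 on the same strand, stood at 0.37 FPKM in SKOV3 control and 27.8 in SKOV3 TET1, where KRT7 went from 1537 to 29.6 FPKM. In HeyC2 KRT86 was 0.28 and 1.23 FPKM. CACNA2D3, which overlaps ESRG on the other strand, was 3.38 and 8.06 FPKM in SKOV3, where ESRG went from 192 to 26.9 FPKM. Others went the same way: STS, the steroid sulfatase gene that overlaps PUDP on the other strand, was 15.3 FPKM in SKOV3 control and 0.26 in SKOV3 TET1, and RPL26L1 beside LOC100268168 was 61.6 and 40.5 FPKM. These genes were chosen after their values were seen.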
